A study of Mus musculus with 36 samples.

Results

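Zfp genes are mouse genes named for zinc finger proteins. The genes described here were the autosomal protein-coding genes of GENCODE whose symbol is Zfp followed by a number, 358 of 20807 autosomal protein-coding genes. Each gene was taken as a window of 2 kb on each side of its transcription start site (TSS) and as its gene body. A gene with another Zfp gene within 100 kb was called clustered and the rest were called single, which gave 204 clustered and 154 single genes. The clustered genes formed chains of 2 to 15 genes, 15 of them with 5 genes or more. A further 27 autosomal genes with a letter suffix in the symbol and 7 genes on chromosome X were left out. The other 20422 autosomal protein-coding genes were used for comparison.

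Histone marks were mapped by chromatin immunoprecipitation and sequencing (ChIP-seq) in mouse hippocampus at postnatal day 0 (P0) and in neurospheres, floating cultures of neural progenitors grown from P0 hippocampi. Ctrl mice were Kdm2b fl/+ or Kdm2b fl/fl, so that both control genotypes carried floxed Kdm2b, and cKO mice were Kdm2b Emx1-ΔCxxC, in which Emx1-Cre removed the CxxC zinc finger of KDM2B. Emx1-Cre acts in the lineage of the dorsal forebrain, so cells of other origin in the tissue keep the domain. Each mark, source and genotype had 2 libraries, 24 libraries in all, and the labels do not say whether these came from separate animals or cultures. The p-values therefore measure the spread between libraries, which may be technical. Hippocampus is a mixed tissue, and fewer cells carrying a mark cannot be told apart from less of the mark in each cell.

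Most Zfp genes encode proteins with tandem C2H2 zinc fingers, which bind DNA, and many also carry a KRAB domain, which recruits TRIM28 and the H3K9 methyltransferase SETDB1 to silence transposable elements. They multiplied by tandem duplication, so many lie side by side on a chromosome as near-identical copies. The 3 marks report on different systems. H2AK119ub1 is placed on histone H2A by Polycomb repressive complex 1 (PRC1), and KDM2B brings a variant PRC1 to unmethylated CpG-rich promoters through its CxxC finger. H3K27me3 is placed by PRC2 and marks genes held silent in development. H3K36me2 lies broadly over intergenic and transcribed chromatin and can be removed by the demethylase domain of long KDM2B. The study asked whether loss of the CxxC finger altered these marks.

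Of the 358 genes, 296 had a promoter in the RefSeq table. Promoter bases are shown for genes that stand for the contrast between duplicated and unique loci, since CpG content is what the CxxC finger reads and near-identity bears on where reads can be placed. Each run holds the 250 bases before a RefSeq TSS, 5′ to 3′ on the strand of the gene in build GRCm38.p6, which has the mm10 coordinates, with every CpG in capitals. Zfp600 (chr4:146156577-146156826, plus strand), Zfp979 (chr4:147642509-147642758, minus strand) and Zfp980 (chr4:145670447-145670696, plus strand) lie in a gene-rich stretch of chromosome 4. Zfp503 (chr14:21989602-21989851, minus strand) and Zfp296 (chr7:19577037-19577286, plus strand) are single genes. Zfp980 has no other Zfp gene within 100 kb, so it also counts as single despite its near-identical copies.
Zfp600: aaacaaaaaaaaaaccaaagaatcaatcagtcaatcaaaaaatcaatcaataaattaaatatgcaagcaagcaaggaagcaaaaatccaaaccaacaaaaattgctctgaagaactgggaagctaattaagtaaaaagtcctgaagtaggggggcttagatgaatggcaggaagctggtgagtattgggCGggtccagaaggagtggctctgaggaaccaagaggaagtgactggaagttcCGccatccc
Zfp979: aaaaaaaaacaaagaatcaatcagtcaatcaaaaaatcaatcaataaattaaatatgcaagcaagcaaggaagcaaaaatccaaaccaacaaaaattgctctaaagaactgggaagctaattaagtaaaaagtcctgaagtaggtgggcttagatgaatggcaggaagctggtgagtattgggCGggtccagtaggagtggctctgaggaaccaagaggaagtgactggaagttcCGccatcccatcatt
Zfp980: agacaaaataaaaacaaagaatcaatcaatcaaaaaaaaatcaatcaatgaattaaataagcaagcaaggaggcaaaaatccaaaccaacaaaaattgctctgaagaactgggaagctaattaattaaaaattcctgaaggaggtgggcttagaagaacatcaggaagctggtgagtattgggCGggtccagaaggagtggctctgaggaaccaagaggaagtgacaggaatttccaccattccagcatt
Zfp503: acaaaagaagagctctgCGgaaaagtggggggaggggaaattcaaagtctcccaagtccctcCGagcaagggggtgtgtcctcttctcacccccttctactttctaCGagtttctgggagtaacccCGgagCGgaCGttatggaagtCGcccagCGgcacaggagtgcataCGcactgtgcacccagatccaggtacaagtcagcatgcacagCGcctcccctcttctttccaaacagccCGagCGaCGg
Zfp296: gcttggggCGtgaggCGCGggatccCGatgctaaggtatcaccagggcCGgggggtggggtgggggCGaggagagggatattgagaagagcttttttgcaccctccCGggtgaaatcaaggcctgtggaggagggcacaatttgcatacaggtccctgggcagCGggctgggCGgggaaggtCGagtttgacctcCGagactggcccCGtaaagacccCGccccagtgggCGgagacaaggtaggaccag

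The promoters of Zfp600 and Zfp979 were 94.1% identical over a global alignment, and that of Zfp980 was 88.7% identical to Zfp600 and 89.0% to Zfp979. Zfp987, in the same stretch but not printed, was less similar, at 78.6%, 81.5% and 81.2% to Zfp600, Zfp979 and Zfp980. Zfp503 and Zfp296 were 42.5% identical. Zfp600 and Zfp979 had 2 CpG each and Zfp980 had 1, while Zfp503 had 13 and Zfp296 had 14, beside a median of 6 over all 32851 RefSeq promoters. At least 2 CpG were found in 81.2% of all promoters of this length, and at least 14 in 29.4%. By the wider measure of CpG richness, which asks for more than 50% GC in the 1 kb around the TSS and more than 0.6 of the CpG that its base composition predicts, 40.7% of clustered genes, 59.1% of single genes and 45.6% of the other genes were CpG-rich. Repeated sequence was measured as the share of 50-base words in the TSS window that also occur elsewhere in the genome. Its median was 3.68% for clustered genes, 1.03% for single genes and 1.42% for the other genes, and 30 Zfp genes were at 50% or more.

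The files list islands, broad regions that SICER called in each library against input DNA, each with its count of reads. Coverage below is the share of a window or gene body that lies under islands. The counts inside islands ranged from 987329 to 22021439 per library, and the share of the autosomes under islands from 1.56% to 20.7%. Neurosphere cKO replicate 1 for H3K36me2 stood above its group at the Zfp TSS windows, at 13.2% against 2.06% to 4.13%, and its values are given apart where it decides a result. As a check of the H3K27me3 islands, 7 genes of other lineages (Gata4, Myod1, Tbx5, Hnf4a, Pax1, Cdx2 and Foxa2) had 85.7% to 100% of their TSS windows covered in all 8 libraries. This does not tell hippocampus from neurospheres.

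The Zfp genes carried less of all 3 marks around their TSS than other genes did. In hippocampus, H2AK119ub1 covered 0.267% and 2.30% of the Zfp TSS windows in the Ctrl libraries, and in the cKO libraries 0.0788% and 4.44%, where the other genes were at 2.95%, 13.6%, 1.89% and 17.9%. H3K27me3 covered 3.95% to 6.17% of Zfp TSS windows in hippocampus and 7.31% to 7.69% in neurospheres, where the other genes were at 9.25% to 18.2% and 16.6% to 21.6%. The Zfp genes were the lower in each of the 8 libraries of each mark. The mean difference within a library was -10.8 percentage points ± 7.01 (SD, n = 8 libraries) for H2AK119ub1, -9.57 ± 3.49 for H3K27me3 and -3.88 ± 3.56 for H3K36me2. Each gave an adjusted p = 0.0117 in a two-sided exact sign-flip permutation test over the 8 libraries, with Benjamini-Hochberg adjustment over the 3 marks and both windows. The smallest p this test can give is 0.00781 before adjustment. Set beside the CpG-rich other genes alone, H3K36me2 no longer passed, with a difference of -1.72 points (adjusted p = 0.178).

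Gene bodies differed less. The Zfp gene bodies were lower than those of other genes by 3.12 percentage points ± 1.17 (SD, n = 8 libraries) for H3K36me2 and by 2.52 ± 2.38 for H2AK119ub1, with an adjusted p = 0.0117 in 8 of 8 libraries and an adjusted p = 0.0281 in 7 of 8 by the same permutation test. Neither passed when only genes with under 10% of repeated words in the TSS window were kept on both sides, at -0.77 and -0.84 points, and the H2AK119ub1 value missed it when any of 6 single libraries was left out. For H3K27me3 the difference was -2.19 ± 2.83 points (adjusted p = 0.0703, lower in 5 of 8). An unweighted mean over genes gave -7.26 points and passed (adjusted p = 0.00781, exact permutation), as did genes with few repeated words at -3.14 and CpG-rich genes at -1.94, both chosen after seeing the data. Without 18 genes of chromosome 4 described further on, which were singled out for high values, the difference was -3.37 points. These values pool clustered and single genes. In hippocampus H2AK119ub1 covered 3.03%, 12.6%, 2.43% and 16.5% of single gene bodies (Ctrl 1, Ctrl 2, cKO 1 and cKO 2). The other genes were below them, at 2.18%, 8.14%, 1.81% and 12.8%. In neurospheres single genes had 17.9%, 3.94%, 8.26% and 18.2%, against 18.4%, 5.70%, 9.82% and 17.9%. For hippocampus H3K36me2 single genes were above the others in cKO replicate 1 alone, at 7.33% against 6.46%. In neurospheres the mean H3K36me2 coverage of single gene bodies was above that of other gene bodies. The lower pooled H3K36me2 value thus does not describe single genes there.

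Within the family, clustered genes carried less H2AK119ub1 and H3K36me2 than single genes. In neurospheres, H2AK119ub1 covered 3.41% and 1.09% of clustered TSS windows in the Ctrl libraries, and in the cKO libraries 1.55% and 4.39%, against 14.1%, 3.81%, 5.29% and 9.96% of the single ones. In hippocampus it covered at most 1.25% of clustered TSS windows in any library and up to 8.58% of single ones. Over gene bodies the gap was wider. H3K36me2 covered 3.28%, 3.0%, 13.3% and 0.89% of clustered gene bodies in neurospheres and 24.9%, 26.6%, 34.3% and 19.9% of single ones, in the order Ctrl replicates 1 and 2 and cKO replicates 1 and 2. The single genes were the higher in all 8 libraries of both marks. The mean difference, clustered minus single, was -4.29 percentage points ± 3.54 at the TSS and -9.15 ± 5.90 over the body for H2AK119ub1, and -2.81 ± 1.43 and -13.3 ± 8.75 for H3K36me2 (SD, n = 8 libraries), each with an adjusted p = 0.0117 in the exact sign-flip permutation test. Among CpG-rich genes alone, a subset chosen after seeing the data, the H3K36me2 difference at the TSS was -0.27 points (adjusted p = 0.578, same permutation test).

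H3K27me3 did not separate clustered from single genes when all genes were counted. The difference was -0.18 percentage points ± 1.79 at the TSS and 0.38 ± 2.62 over the body (SD, n = 8 libraries), with an adjusted p = 0.773 for both by the exact permutation test. The sign over the body turned without chromosome 4. Without those 18 genes, 13 of them clustered and all singled out for their values, clustered minus single was -1.82 points over bodies, which is given with no test. Among CpG-rich genes alone, clustered genes were lower by 2.77 points at the TSS and by 2.51 points over the body, also with no test. This subset was chosen after seeing the data and holds none of those 18 genes.

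**Figure D1:**
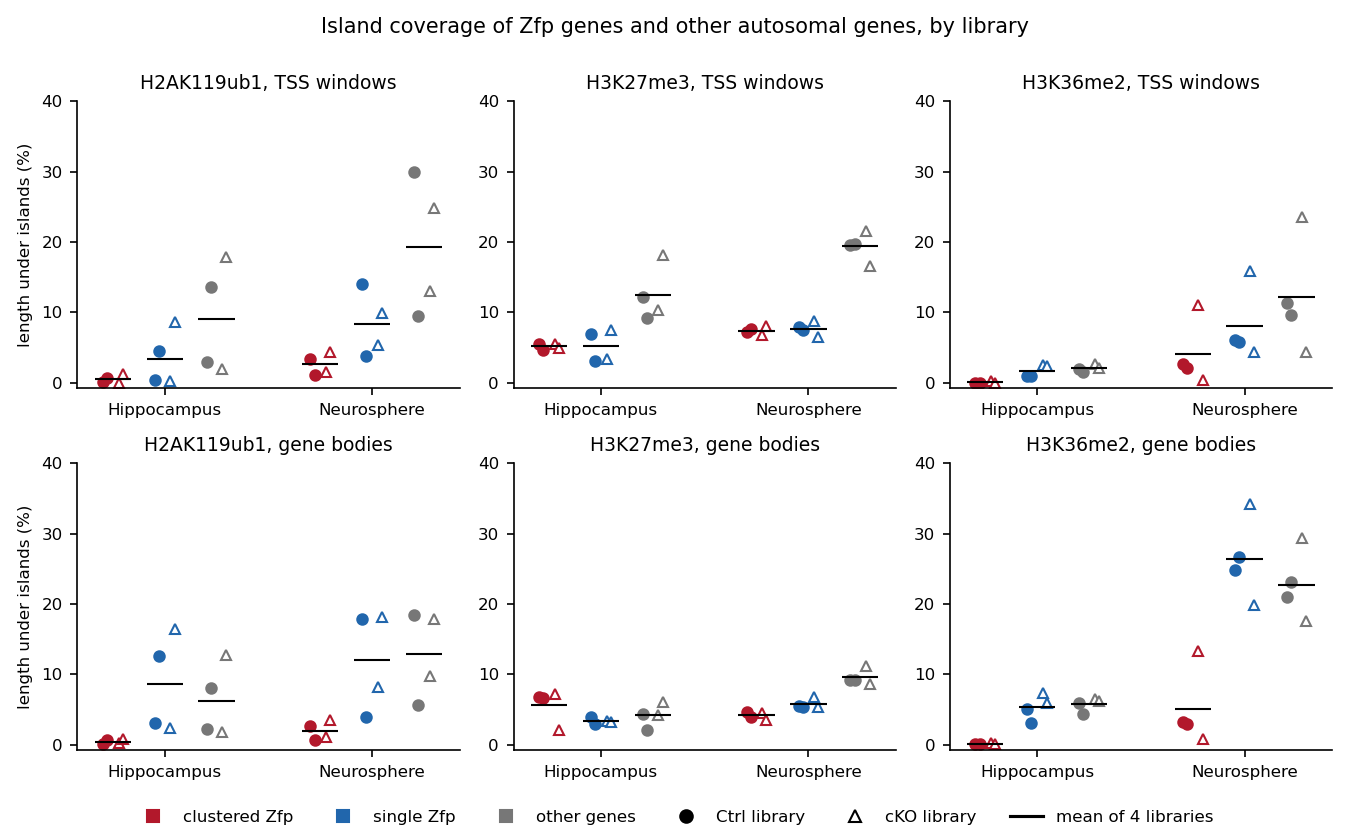
Share of TSS windows (top) and gene bodies (bottom) under islands, in percent, for clustered Zfp genes, single Zfp genes and other autosomal protein-coding genes. Each point is a library, circles are Ctrl and triangles cKO, and the bar is the mean of the 4 libraries of a mark and source. Clustered genes lie below single genes for H2AK119ub1 and H3K36me2. Clustered TSS windows lie below those of other genes. Single ones do too, except for H3K36me2 in hippocampus cKO replicate 2 (2.39% against 2.08%).

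H3K27me3 coverage of the Zfp genes as a set was higher upstream of the TSS than at the TSS or downstream of it. The flanks of the 18 chromosome 4 genes were not measured apart. In 3 hippocampus libraries the mark covered 53.6% to 56.6% of the bodies of those genes. Averaged over neurosphere libraries, 25.8% of clustered genes were under an island at 10.25 kb upstream of the TSS, 4.97% at 0.25 kb upstream, 3.61% at 1.25 kb downstream and 6.34% at 10.25 kb downstream. Single genes gave 24.6%, 6.50%, 3.49% and 6.12% at the same positions. The other genes ran from 21.2% upstream over 18.5% and 17.8% to 14.8%. This pattern was noticed in the profile and then measured over 6 to 14 kb on each side of the TSS. Upstream of clustered genes, H3K27me3 covered 15.4%, 5.83%, 9.96% and 16.0% in the hippocampus libraries (Ctrl 1, Ctrl 2, cKO 1 and cKO 2) and 25.8%, 22.0%, 24.6% and 26.0% in the neurosphere libraries. Downstream it covered 4.96%, 3.56%, 5.10% and 2.09% in hippocampus and 6.44%, 5.71%, 5.24% and 4.02% in neurospheres. Upstream was the higher side in all 8 libraries, by 13.6 percentage points ± 7.16 (SD, n = 8 libraries). No test is given for this or the next comparisons of flanks and of space between genes, since they were picked from these libraries.

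Other genes were also higher upstream for H3K27me3, at 4.15% to 23.5% against 3.62% to 17.0% downstream. The step of all Zfp genes exceeded that of the other genes by 8.37 points ± 4.96 (SD, n = 8 libraries), in 8 of 8 libraries. The same subtraction gave 1.20 ± 1.01 points for H2AK119ub1 (positive in 7 of 8) and 1.82 ± 1.31 for H3K36me2 (8 of 8).

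**Figure D2:**
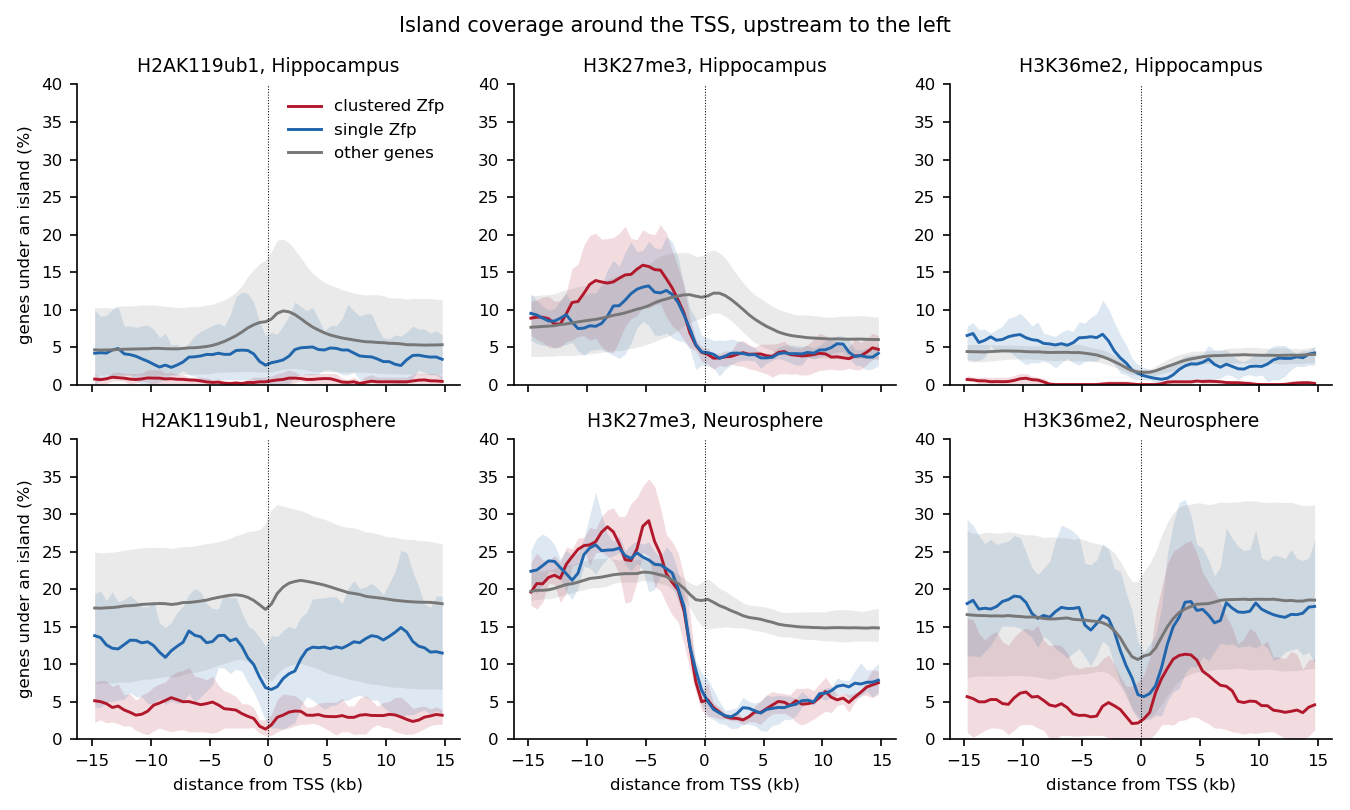
Share of genes under an island, in percent, against distance from the TSS in kb, in bins of 500 bp with upstream to the left. Lines are means of 4 libraries (2 Ctrl, 2 cKO) and bands run from the lowest to the highest library. In neurospheres the H3K27me3 line of clustered and single Zfp genes falls from 25.8% and 24.6% at 10.25 kb upstream to 3.61% and 3.49% at 1.25 kb downstream.

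The cluster spans were also divided without reference to strand. Of the spans from the first to the last gene of each chain, 3326 kb lay outside every protein-coding gene and 3847 kb inside Zfp gene bodies. H3K27me3 covered 17.5%, 7.94%, 12.7% and 14.3% of the first part in the hippocampus libraries and 6.84%, 6.67%, 7.18% and 2.10% of the second, in the order given above. In neurospheres it covered 25.6%, 20.8%, 21.8% and 26.4% between genes and 4.71%, 3.94%, 4.55% and 3.51% inside them. The space between genes was the more covered in all 8 libraries, by 13.4 percentage points ± 7.48 (SD, n = 8 libraries). The difference was 14.3 points without the chromosome 4 genes. H2AK119ub1 differed by 0.37 ± 0.84 points, and H3K36me2 went the other way, with the gene bodies higher in 7 of 8 libraries (-1.44 ± 2.43). The H3K36me2 value moved to -0.63 without neurosphere cKO replicate 1.

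The 15 clusters of 5 or more genes differed from each other in H3K27me3. In neurospheres the spans of Zfp868 to Zfp866 on chromosome 8 (25.1% to 40.2%), Zfp553 to Zfp689 on chromosome 7 (25.6% to 35.8%), Zfp871 to Zfp563 on chromosome 17 (24.5% to 32.3%) and Zfp560 to Zfp846 on chromosome 9 (21.7% to 29.8%) were the most covered. The least covered were Zfp84 to Zfp146 on chromosome 7, a cluster of 15 genes (4.54% to 6.18%), Zfp677 to Zfp994 on chromosome 17, also of 15 genes (4.28% to 6.65%), and Zfp786 to Zfp746 on chromosome 6 (5.24% to 7.41%). These clusters were picked by the same values, and others lay between, such as Zfp787 to Zfp28 (6.40% to 18.9%) and Zfp738 to Zfp273 (17.3% to 29.5%). Zfp84 to Zfp146 holds Zfp568, a KRAB gene required in the early embryo, whose TSS window had no H3K27me3 or H2AK119ub1 island in any library.

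The order of the clusters in hippocampus was not that in neurospheres. Zfp553 to Zfp689 had 3.42%, 2.22%, 6.48% and 20.7% of its span covered there, and in Ctrl replicate 1 it lay below Zfp677 to Zfp994 (4.89%). Zfp982 to Zfp933 on chromosome 4 had 44.2% and 39.3% of its span under H3K27me3 in the Ctrl libraries, and in the cKO libraries 50.1% and 4.89%, the highest of the 15 clusters in 3 of 4 libraries. It had 9.78% to 15.5% in neurospheres, within the range of the other clusters. H2AK119ub1 covered at most 6.50% of any of the 15 clusters in hippocampus. In neurospheres it covered 13.1% to 21.2% of Zfp553 to Zfp689 and 0% to 36.3% of Zfp628 to Zfp580, a cluster of 6 genes on chromosome 7, and at most 9.73% of any other. H3K36me2 covered at most 32.0% of any cluster in neurospheres, and that value, like most of the maxima, came from cKO replicate 1.

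**Figure D3:**
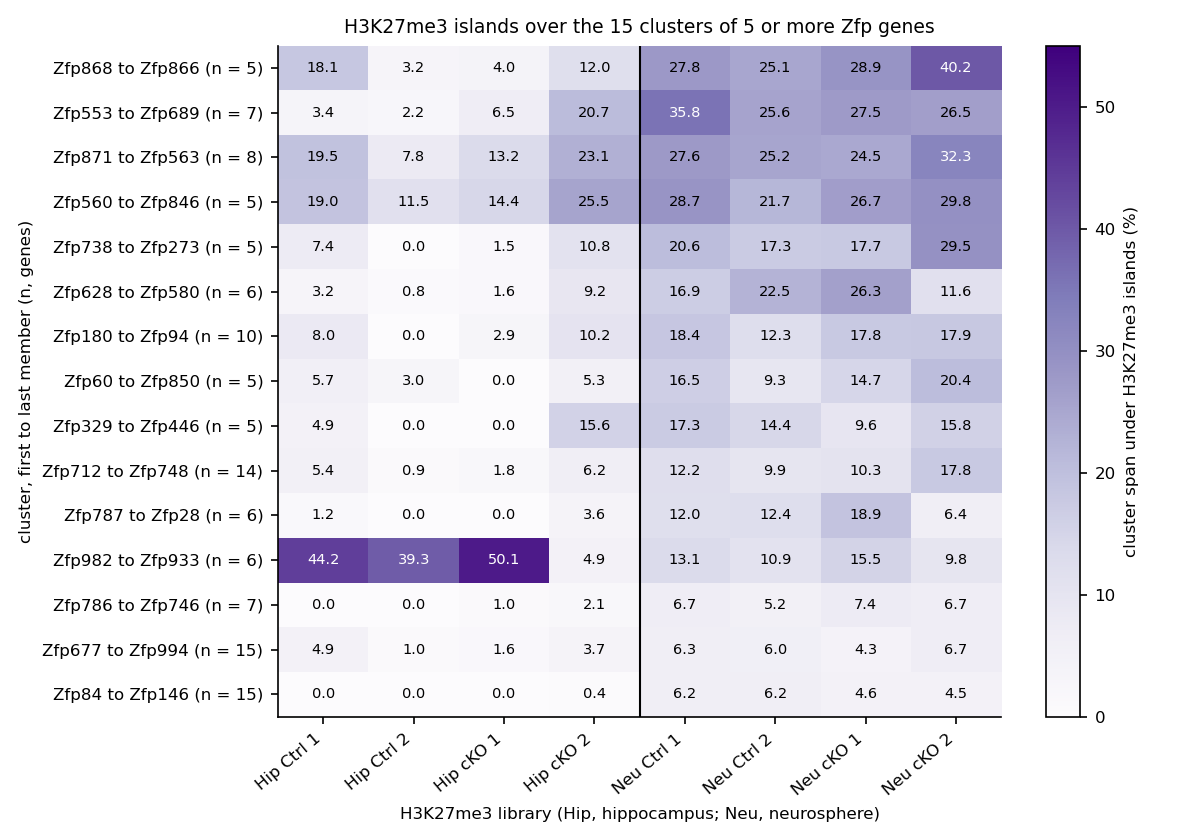
Share of each cluster's span under H3K27me3 islands, in percent, for the 15 clusters of 5 or more Zfp genes (rows, ordered by the neurosphere mean, with the number of genes) in the 8 H3K27me3 libraries (columns; Hip, hippocampus; Neu, neurosphere). Zfp982 to Zfp933 is the darkest row in 3 hippocampus libraries and is at 4.89% in hippocampus cKO replicate 2.

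The cluster Zfp982 to Zfp933 is the end of a longer stretch on chromosome 4 (mm10, 145510759 to 147848366, 2.34 Mb) that holds 18 of the Zfp genes, from Zfp990 to Zfp933, 13 of them clustered. The stretch was singled out after its values were seen. In hippocampus H3K27me3 islands covered 51.3% and 39.3% of it in the Ctrl libraries, 40.5% in cKO replicate 1 and 4.27% in cKO replicate 2. In neurospheres the shares were 11.2%, 10.5%, 11.9% and 7.55%. Unsequenced bases make up 18.5% of the stretch, in 6 runs of up to 150 kb, and of the sequenced part the islands covered 62.9%, 48.2%, 49.7% and 5.24% in hippocampus. Of the 18 TSS windows, 11 and 13 met an island in the hippocampus Ctrl libraries, 11 in cKO replicate 1 and 2 in cKO replicate 2, and 9, 7, 7 and 0 were fully covered. The 3 libraries with wide islands thus include both genotypes, and the genotypes overlap.

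The islands there were also dense and long in those 3 libraries. They held 49.98, 36.4 and 65.8 counts per kb, where all islands of the same libraries held 34.4, 30.6 and 43.3, and the longest island was 95.2, 80.4 and 113 kb. In cKO replicate 2 they held 30.6 counts per kb against 34.5 in all islands. Bodies of the 4 other protein-coding genes in the stretch had a similar split, at 46.0%, 37.7%, 38.3% and 2.61%. H2AK119ub1 islands covered at most 1.48% of the stretch and H3K36me2 islands at most 0.43% in any library. None of the 18 TSS windows was CpG-rich, and the promoters of Zfp600, Zfp979 and Zfp980 printed above belong to this stretch.

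Repeated sequence was frequent in this stretch. Over the 18 genes the median share of repeated words in the TSS window was 78.1%, with a range of 4.58% to 98.0%, and 14 of the 30 Zfp genes at 50% or more lie in the stretch. The 16 such genes elsewhere had 2.62% to 5.12% of their TSS windows under H3K27me3 in hippocampus, and 810 other genes at 50% or more had 6.94% to 11.9%. How reads with several possible placements were handled is not given in the sources used here, so the islands of single copies are uncertain, and the part of repeated sequence in the result was not tested. The stretch held most of the H3K27me3 over clustered gene bodies in 3 of the 4 hippocampus libraries, cKO replicate 2 being the exception. Clustered gene bodies were covered to 6.84%, 6.67%, 7.18% and 2.10% with it and to 0.960%, 0.347%, 0.492% and 1.77% without it.

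**Figure D4:**
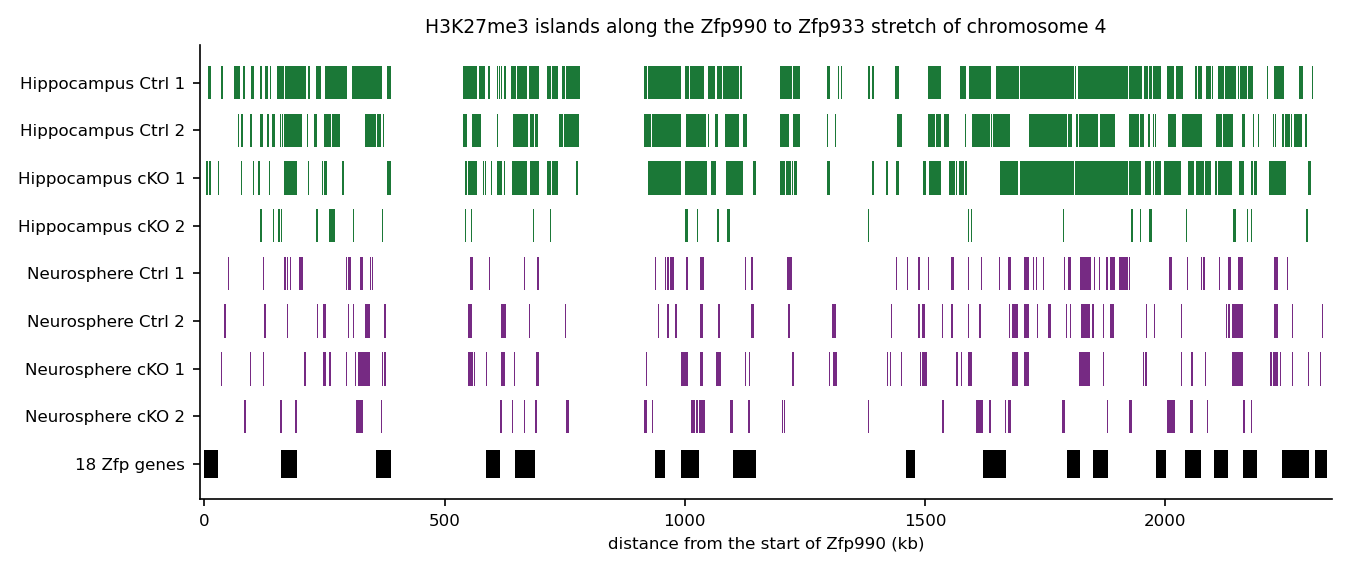
H3K27me3 islands (bars) in each of the 8 libraries along the chromosome 4 stretch, with the 18 Zfp gene bodies below; the axis is distance in kb from the start of Zfp990. Wide islands fill much of the stretch in hippocampus Ctrl replicates 1 and 2 and cKO replicate 1 (39.3% to 51.3% of its length), and short ones cover 4.27% to 11.9% in the other 5 libraries. The blank intervals shared by all libraries include unsequenced bases.

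The 5 single Zfp genes with the highest mean H3K27me3 coverage of the TSS window all had CpG-rich windows. Zfp541, expressed in meiotic germ cells, had 100%, 9.68%, 29.7% and 100% of its TSS window covered in hippocampus (Ctrl 1, Ctrl 2, cKO 1 and cKO 2) and 99.7% to 100% in neurospheres. Zfp296, a factor of pluripotent cells, had 82.8%, 62.1%, 72.8% and 97.2% in hippocampus and 100%, 92.2%, 55% and 50% in neurospheres. The 2 cKO neurosphere libraries of Zfp296 were both below the 2 Ctrl libraries, and those of hippocampus overlapped. Zfp503, a zinc finger gene of the developing striatum and limb, had 75.0% in 3 hippocampus libraries and 100% in cKO replicate 2, but 0% in 3 neurosphere libraries and 65.0% in cKO replicate 1. Hippocampus was thus above neurospheres for Zfp503 in every library. Zfp618 had 0% to 65.0% in hippocampus and 40.7% to 100% in neurospheres. Zfp781, the fifth, lies on chromosome 10 with 100% of repeated words, at 17.0% to 92.0%.

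The clustered genes of highest mean H3K27me3 coverage were Zfp979, Zfp978, Zfp111, Zfp992 and Zfp600, and all but Zfp111 lie in the chromosome 4 stretch. Zfp979, Zfp978, Zfp992 and Zfp600 each had 100% of the TSS window covered in hippocampus Ctrl replicates 1 and 2 and cKO replicate 1 and 0% in cKO replicate 2. In neurospheres Zfp979 was at 82.8% in both Ctrl libraries and at 0% in both cKO libraries, and Zfp992 at 55% and 9.45% and then 0%. Zfp111, on chromosome 7 with 4.2% of repeated words, was different. It had 0% in 3 hippocampus libraries, 95.0% in cKO replicate 2, and 80%, 55%, 66.0% and 86.0% in neurospheres.

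For H2AK119ub1 the highest single genes were Zfp423, Zfp704, Zfp648, Zfp503 and Zfp296. Zfp423, a regulator of cerebellar and adipocyte development, had 19.9%, 100%, 0% and 75.0% of its TSS window covered in hippocampus and 100%, 0%, 45.1% and 80% in neurospheres. Its 2 Ctrl libraries were at opposite ends of the scale in neurospheres and far apart in hippocampus. Zfp704 likewise ran from 0% to 100% among Ctrl libraries of each source. Zfp648 had 100% in both neurosphere Ctrl libraries, 54.6% in cKO replicate 1 and 0% in cKO replicate 2, while hippocampus overlapped at 0%, 59.6%, 0% and 44.6%. The highest clustered genes were Zfp853, Zfp663, Zfp316, Zfp692 and Zfp956, of which Zfp853 and Zfp316 share a cluster of 3 on chromosome 5. Zfp853 had 14.4%, 74.5%, 0% and 99.5% in hippocampus and 100%, 0%, 0% and 94.5% in neurospheres. In 9 of these 10 genes neurosphere Ctrl replicate 1 was above Ctrl replicate 2, and Zfp648 had the same value in both.

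**Figure D5:**
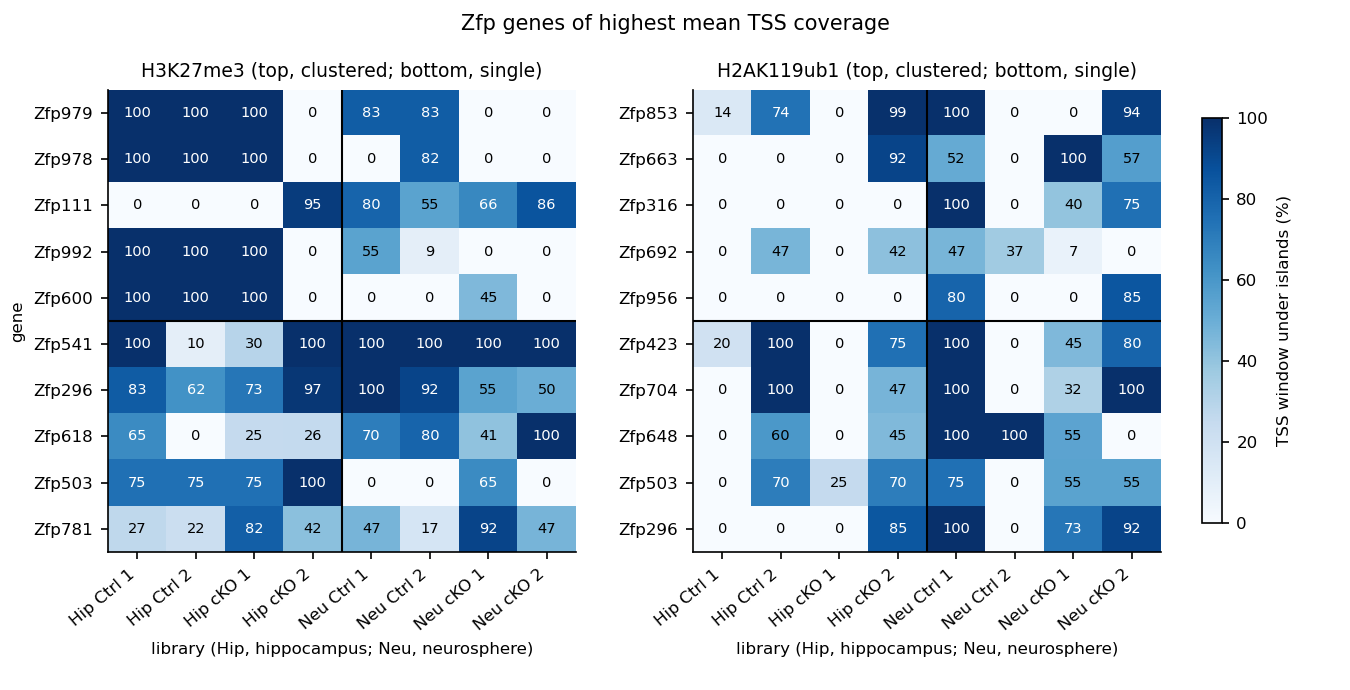
TSS coverage in percent of the 5 clustered and 5 single Zfp genes with the highest mean H3K27me3 (left) or H2AK119ub1 (right) coverage, in each of the 8 libraries of the mark (Hip, hippocampus; Neu, neurosphere). The 4 chromosome 4 genes of the left panel are at 100% in 3 hippocampus libraries and at 0% in cKO replicate 2.

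The single genes of highest mean H3K36me2 coverage of the body were Zfp957, Zfp366 and Zfp423. Zfp957, on chromosome 14, had 74.7%, 21.7%, 47.4% and 62.2% of its body covered in hippocampus and 93.0%, 85.6%, 81.0% and 77.0% in neurospheres. Zfp366, a gene of dendritic cells also called DC-SCRIPT, had 10.0% to 25.3% in hippocampus and 77.4% to 93.3% in neurospheres. Zfp423 had 9.20% to 32.0% in hippocampus and 93.3%, 92.0%, 89.5% and 32.8% in neurospheres. In these genes the 4 neurosphere libraries were all above the 4 hippocampus libraries. The highest clustered genes, Zfp688, Zfp146 and Zfp112, had 0% in all 4 hippocampus libraries and 0% to 100% in neurospheres.

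Genes of known function were looked up whatever their values. Zfp57, which protects imprinted loci, had 25.9% of its TSS window under H3K27me3 in both neurosphere Ctrl libraries and 0% in the other 6. Zfp809, which silences murine retroviruses, had no H3K27me3 or H2AK119ub1 island, and H3K36me2 on 6.80% to 30.3% of its body in neurospheres alone. Zfp42 (Rex1), a marker of pluripotent cells, had no TSS island of H3K27me3 or H2AK119ub1. Zfp36, which encodes the mRNA-binding protein tristetraprolin with CCCH fingers, had H2AK119ub1 on 69.7% and 17.8% of its body in the neurosphere Ctrl libraries and 0% in the cKO libraries. Zfp281, Zfp148 and Zfp335 had no H3K27me3 island in any library, and nor did Zfp219, Zfp462 and Zfp703.

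Values over gene bodies are given for 5 of these genes for H2AK119ub1. Zfp503 had 22.0%, 75.2%, 61.0% and 78.7% in hippocampus and 0% to 70.9% in neurospheres, and Zfp462 had 7.51%, 21.5%, 5.05% and 20.3% and then 0% to 8.81%. Zfp521, a regulator of neural progenitor fate, had 12.04%, 33.2%, 8.33% and 53.9% of its body under H2AK119ub1 in hippocampus and 8.54% to 18.2% in neurospheres. Zfp536, which restrains neuronal differentiation, had 9.55%, 38.3%, 2.99% and 60.2% in hippocampus and 5.98% to 30.9% in neurospheres. Zfp703 had 0%, 98.2%, 0% and 98.2% in hippocampus. In all 5 genes the hippocampus replicates numbered 2 were the high ones, and these libraries also had the larger covered length, 157 and 247 Mb against 45.7 and 37.3 Mb.

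Where H3K27me3 islands were called on clustered TSS windows in neurospheres, they were less dense than those on TSS windows of other genes. The counts per kb of these islands, divided by those of all islands of the library, were 0.92 to 1.10 for clustered genes, 0.86 to 1.09 for single genes and 1.33 to 1.47 for the other genes. The ranges of the Zfp genes and of the other genes did not overlap. Median widths were 3.40 to 6.70 kb, 5.20 to 7.50 kb and 5.80 to 10.0 kb. In hippocampus the clustered ratio was 0.94 to 1.72, with the chromosome 4 islands included. H2AK119ub1 islands on clustered TSS windows in neurospheres numbered 6 to 19 per library, with ratios of 0.89 to 1.04 against 1.04 to 1.17 for the other genes.

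The genotypes were not separated in the coverage of Zfp genes by any of these tests. At TSS windows the difference, cKO minus Ctrl, was 0.98 percentage points for H2AK119ub1, 0.24 for H3K27me3 and 0.70 for H3K36me2 in hippocampus, and -0.17, -0.0099 and 3.70 in neurospheres (n = 2 and 2 libraries, adjusted p = 1 for all 6 in two-sided exact permutation tests). The smallest p that 2 libraries against 2 can give is 0.333. Hippocampus H3K36me2 reached it, with 0.401% and 0.432% in Ctrl and 1.20% and 1.04% in cKO, a set of low values that did not overlap. TSS windows of the other genes did not overlap either, at 2.02% and 1.45% against 2.60% and 2.08%. Without cKO replicate 1 the neurosphere H3K36me2 value was -1.84, and without cKO replicate 2 it was 9.25. Over gene bodies the differences were 1.12, -0.89 and 1.63 points in hippocampus and 1.74, 0.32 and 2.27 in neurospheres for the same marks (adjusted p = 1), the last again resting on cKO replicate 1, at -4.56 without it. Hippocampus H3K36me2 was again without overlap, at 3.34% and 2.08% against 4.80% and 3.88%, where the other genes were at 5.99% and 4.34% against 6.46% and 6.28%. A test stratified over both sources gave p = 0.889, 0.778 and 0.722 at the TSS and p = 0.611, 0.667 and 0.722 over the body for H2AK119ub1, H3K27me3 and H3K36me2 (exact permutation, smallest possible p 0.0556).

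Gene by gene, few TSS windows separated the genotypes, and about as often as among all genes. In neurospheres H3K27me3 coverage was lower in both cKO libraries than in both Ctrl libraries for 22 of the 358 Zfp genes, where 5.10% of all 20807 genes were, and higher for 9, where 3.61% were. In hippocampus it was lower for 4 (0.827% of all genes) and higher for 14 (3.82%). For H2AK119ub1 no Zfp gene was lower (0.505%) or higher (0.610%) in hippocampus, and in neurospheres 9 were lower (3.50%) and 6 higher (2.24%). For H3K36me2 none was lower (0.553%) and 2 higher (1.00%) in hippocampus, and 9 were lower (2.87%) and 3 higher (2.19%) in neurospheres. The Zfp shares corresponding to these counts were 6.15% and 2.51% for neurosphere H3K27me3 and 1.12% and 3.91% for hippocampus H3K27me3.

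At TSS windows, only 4 Zfp genes, 1.12%, kept the same direction in both sources, all for H3K27me3, where 0.509% of all genes did. Zfp846, the last gene of its cluster on chromosome 9, had 0%, 2.75%, 22.8% and 52.8% in hippocampus and 32.8%, 17.8%, 62.8% and 42.8% in neurospheres, higher in cKO. Zfp707 had 11.9%, 6.95%, 16.9% and 31.9% in hippocampus and 16.9%, 16.9%, 52.0% and 42.0% in neurospheres, also higher in cKO. Zfp105 was lower in cKO, with 38.2%, 28.2%, 23.2% and 18.2% in hippocampus and 33.2%, 33.2%, 13.2% and 28.2% in neurospheres. Zfp433, lower as well, had 44.4%, 24.4%, 0% and 0% in hippocampus and 44.4%, 44.4%, 9.40% and 34.4% in neurospheres, with 96.2% of repeated words in its window. The TSS windows of a further 2 of the 358 Zfp genes separated in opposite directions in the 2 sources, as did 86 of all 20807 genes. For H2AK119ub1 and H3K36me2 no Zfp TSS window separated in both sources, beside 0.144% and 0.101% of all genes. These counts do not cover gene bodies, where Zfp541 (H2AK119ub1) and Zfp148 (H3K36me2) were higher in cKO in both sources.

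Counts of reads were compared over merged regions with an island in all 4 libraries of a mark and source, by the quasi-likelihood test of edgeR fitted to all such regions. The regions that met a Zfp gene numbered 18 of 2750 and 32 of 6060 for H2AK119ub1 in hippocampus and neurospheres, 40 of 4387 and 112 of 11262 for H3K27me3, and 17 of 6447 and 167 of 34454 for H3K36me2. No region passed a false discovery rate of 0.05 in any of the 6 fits, among Zfp genes or in all (0%). Counting unadjusted p-values under 0.05, the fits gave 0, 3, 1, 19, 1 and 2 Zfp regions in the same order, and 30, 101, 155, 2077, 318 and 736 of all regions. DESeq2, run beside it, called 0, 3, 0, 7, 1 and 1, and 0, 32, 3, 734, 17 and 83 of all regions. The median log2 fold change of the 112 neurosphere H3K27me3 regions was -0.31, where that of all regions was 0.014, with 70 of 112 below 0. Scaled by library size alone these medians were -0.05 and 0.28.

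The regions of smallest p show what such changes looked like. In neurospheres an H3K27me3 region that met the body of Zfp697 (chromosome 3, 98468601 to 98494400) held 240 and 116 counts in Ctrl, and in cKO it held 597 and 888, a log2 fold change of 2.11 ± 0.37 (SE; adjusted p = 0.175, edgeR). A region that met the TSS window of Zfp384, which encodes a factor that binds the promoters of matrix genes (chromosome 6, 124978801 to 125007800), held 1429 and 1068 counts in Ctrl, and in cKO it held 345 and 176, at -2.23 ± 0.41 (adjusted p = 0.175). Neither passed, although the groups did not overlap. For neurosphere H2AK119ub1, a region that met the TSS window of Zfp821 (chromosome 8, 109692801 to 109707600) held 529, 223, 51 and 88 counts, at -1.96 ± 0.62, and a region in Zfp473 had 1.54 ± 0.59 (adjusted p near 1 for both). Hippocampus H3K27me3 had 1.42 ± 0.54 at the TSS window of Zfp688, with 60, 55, 245 and 318 counts, and -1.77 ± 0.82 at Zfp980 in the chromosome 4 stretch, with 2673, 1480, 1887 and 187 counts.

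None of the other 6 regions named by the same rule passed. Hippocampus H2AK119ub1 had -0.80 ± 0.45 in Zfp423 and 1.04 ± 0.59 at Zfp503. Hippocampus H3K36me2 had 1.84 ± 0.68 in Zfp536 with 78, 46, 262 and 320 counts (adjusted p = 0.968, edgeR), and -1.03 ± 0.60 in Zfp407. Neurosphere H3K36me2 had 1.24 ± 0.32 in Zfp608 and 1.02 ± 0.39 in Zfp521 (log2 fold change ± SE, adjusted p = 0.962 for both). The counts of a region are sums over called islands, so each change combines called length with counts per kb.

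The TSS windows of Zfp genes were more covered in neurospheres than in hippocampus by 2.32 percentage points for H3K27me3 and by 4.99 points for H3K36me2, the largest separation a test stratified by genotype can show (p = 0.0556, adjusted p = 0.0833, exact permutation). Without neurosphere cKO replicate 1 the H3K36me2 difference was 2.21 points. H2AK119ub1 differed by 3.31 points (p = 0.222, exact permutation). The neurosphere libraries also had more called length, at 127 to 497 Mb against 37.3 to 247 Mb, and its part in these differences was not tested. Other genes had 16.6% to 21.6% of TSS windows under H3K27me3 in neurospheres and 9.25% to 18.2% in hippocampus, ranges that overlapped.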

How the data were processed

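Each deposited file listed the islands of a single library with a count of reads per island. Per the labels and methods, the authors trimmed reads with cutadapt, aligned them to mm10 with Bowtie2 2.4.5, removed duplicates and called islands against input with SICER (window 200 bp, gap 600 bp, false discovery rate 0.01). The counts the authors deposited were not normalized. They cover islands alone, so a place without an island has no known count and their sum is not the sequencing depth. The 12 input samples had no file. Handling of reads with several placements is not given in the sources used here.

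Zfp genes came from GENCODE vM21. Coverage was the share of the merged windows or bodies of a set under islands, and the mitochondrial chromosome was left out. Clustered and single genes, and Zfp and other genes, were compared within each library by exact two-sided sign-flip tests over 8 libraries, and genotypes by exact permutation of 2 against 2 libraries, with Benjamini-Hochberg adjustment. Counts were tested with edgeR 4.0.16 in R 4.3.3, with TMM scaling, and DESeq2 1.42.0 was an alternative. Other steps used Python 3.11.15 with numpy 2.4.6, scipy 1.17.1 and pandas 2.3.3. The tests were tried on simulated data.

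Genes and lists were chosen with earlier results of these data known. The text names clusters of 5 or more genes, the 5 clustered and 5 single genes of highest mean TSS coverage for H3K27me3 and H2AK119ub1 (3 and 3 by body for H3K36me2), up to 4 genes a mark that separated the genotypes alike in both sources, the 2 regions of smallest p in each edgeR fit, and 15 genes of known function. The chromosome 4 stretch and the comparisons of flanks and of space between genes were added after seeing the data and carry no test. Subsets of genes with few repeated words, or with CpG-rich promoters on both sides of a comparison, were also added after seeing the data. The marker list of the labelled tissue itself is not reported here.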

Additional observations from a re-analysis of the deposited data

Results flagged for a closer look

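Zfp618, a single gene on chromosome 4 outside the gene-rich stretch (62965573 to 63139708), moved in opposite directions in the 2 sources. H3K27me3 covered 23.4% and 14.7% of its body in hippocampus Ctrl and 33.1% and 24.2% in hippocampus cKO, a mean difference of 9.59 percentage points. In neurospheres it covered 77.1% and 75.1% in Ctrl and 65.0% and 38.7% in cKO, a mean difference of -24.2 points. Both cKO libraries were above both Ctrl libraries in hippocampus and below both in neurospheres. The difference was not tested. Over bodies, H3K27me3 was higher without overlap in cKO for 7.21% of other genes in hippocampus, and lower for 5.53% in neurospheres. The share of genes with both is not given here. The bodies of Zfp277 (H2AK119ub1) and Zfp474 (H3K36me2) also separated in opposite directions.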

How the results depend on the processing

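No genotype difference in coverage passed a test, and with 2 libraries against 2 none could at 0.05. Some changed sign with the setting: 8 of 42 values at TSS windows and 4 of 36 over bodies, none of them for H3K36me2. At TSS windows H3K27me3 turned to -0.38 (1 kb window) and -1.59 (equal covered length) in hippocampus and to 0.29 (1 kb window), 0.64 (islands of at least 2 kb), 0.23 (suffixed symbols allowed), 0.023 (unweighted mean) and 0.068 (without chromosome 4 genes) in neurospheres, and hippocampus H2AK119ub1 to -0.059 (equal length). Over bodies equal length gave -0.64 for hippocampus H2AK119ub1 and -0.59 for neurosphere H3K27me3, an unweighted mean gave -0.62 for the latter, and hippocampus H3K27me3 was 0.62 without chromosome 4. Leaving out a library gave, for hippocampus and neurospheres at the TSS, -1.20 to 3.16 and -3.06 to 2.73 for H2AK119ub1, -0.87 to 1.35 and -0.20 to 0.18 for H3K27me3, and 0.62 to 0.78 and -1.84 to 9.25 for H3K36me2. Over bodies the ranges were -3.52 to 5.75, -3.08 to 6.55, -1.83 to 0.055, -0.32 to 0.95, 1.00 to 2.26 and -4.56 to 9.11. Clustered minus single H3K27me3 turned at the TSS to 0.11 (equal length) and 1.37 (200 kb) and over bodies to -0.14 (unweighted), -1.82 (without chromosome 4), -1.63 (few repeated words) and -2.51 (CpG-rich alone), with -2.77 at the TSS for CpG-rich genes and leave-one-out ranges of -0.50 to 0.17 and -0.12 to 0.75. H3K36me2 at the TSS fell to -0.27 among CpG-rich genes. Zfp minus other gene bodies gave -2.01 (without 2 kb near the TSS), -1.48 (equal length), -0.84 (few repeated words) and -0.76 (CpG-rich) for H2AK119ub1, with -2.91 to -2.02 on leaving out a library. They gave -7.26 (unweighted), -3.37 (without chromosome 4), -3.14 (few repeated words) and -1.94 (CpG-rich) for H3K27me3, and -0.77 (few repeated words) for H3K36me2. H3K36me2 at the TSS was -1.72 against CpG-rich genes. Upstream minus downstream H3K36me2 of clustered genes was 0.30 (islands of at least 2 kb) and 0.24 (without chromosome 4), with 0.16 to 0.26 on leaving out a library, and the H2AK119ub1 step over other genes ranged from 1.01 to 1.46. H3K36me2 between genes was -1.14 with islands of at least 2 kb and -1.65 to -0.63 on leaving out a library. The cause was not tested in any of these.

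DESeq2 called 3 Zfp regions for neurosphere H2AK119ub1, 7 for neurosphere H3K27me3 and 1 each for H3K36me2 in hippocampus and neurospheres, where edgeR called 0, and 32, 734, 17 and 83 of all regions. With a library left out edgeR called 0 to 1, 0 to 6, 0 to 9, 0 to 31, 0 to 0 and 0 to 14 Zfp regions, for H2AK119ub1, H3K27me3 and H3K36me2 in turn, hippocampus first. The 31 of 124 came without neurosphere cKO replicate 1 (2853 of all 16288), as did the 14 of 172 (2463 of 37890), the 9 of 43 without hippocampus cKO replicate 1 (37 of 5288), the 6 of 28 without neurosphere Ctrl replicate 1 (567 of 6680) and the 1 of 19 without hippocampus cKO replicate 2 (16 of 2705). A fit with the replicate number as a block called 0 Zfp regions in all 6. The deviations of same-numbered Ctrl and cKO libraries from the mean of their own genotype correlated at -0.32 to 0.33. The labels do not pair these libraries, so the numbers are only names. Islands called per library limit all of these values, since a change in called length moves coverage and counts together.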

Other observations

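Other families of zinc finger and silencing genes differed widely in H3K27me3 at the TSS, given here as the lowest and highest of 4 libraries with no test. The 10 Zscan genes, which join a SCAN domain to zinc fingers, had 0% to 0.32% of their TSS windows covered in hippocampus and 1.45% to 4.28% in neurospheres. The 34 Zbtb genes, whose products carry a BTB domain, had 4.69% to 11.3% and 6.45% to 14.2%. The 11 Zkscan genes had 0.27% to 6.94% and 3.67% to 14.8%. The 16 Klf genes had 14.8% to 25.3% and 10.8% to 27.7%. The 4 Zic genes had 3.96% to 89.2% in hippocampus and 0% in all neurosphere libraries, and the 3 Gli genes 0% to 76.7% and 13.1% to 100%.

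The 14 genes that act with KRAB zinc finger proteins in silencing had 0% to 8.91% in hippocampus and 2.99% to 17.9% in neurospheres. The 1087 olfactory receptor genes, a family that also lies in tandem clusters, had 0.79% to 3.97% and 5.84% to 10.2%. H2AK119ub1 covered 0% to 0.31% of olfactory receptor TSS windows in hippocampus and 0.50% to 2.06% in neurospheres.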
